A study of Mus musculus with 32 samples.

Results

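The miRNAs of the mouse families miR-297, miR-466, miR-467 and miR-669 were followed from undifferentiated embryonic stem (ES) cells to cardiomyocytes on 2 array platforms. Members were chosen by name: a miRNA had to be present on both arrays and its name had to start with one of the 4 family numbers. This rule, which used no measured value, found 50 members among the 608 miRNAs common to both arrays, namely 6 of miR-297, 20 of miR-466, 12 of miR-467 and 12 of miR-669. A further 4 miRNAs of the miR-669 family (miR-669l, m, n and o) were on the Febit array only.

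These families are best known from a large cluster of near-identical hairpins in an intron of Sfmbt2, a gene for a Polycomb group protein which in mouse is expressed from the paternal copy and is needed for the placenta. Each hairpin is cut into a 5p and a 3p strand, and an older name marks the less abundant strand with a star. A miRNA finds its mRNAs mainly by its seed, and the many copies of this cluster differ from one another by only a few bases. Members of these families are known from cloning in mouse ES cells, and miR-669a is known in mouse cardiac progenitors for holding back a skeletal muscle programme.

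All samples derived from 1 clone, aPIG 44, of the D3 ES cell line. The clone carried a stably transfected vector (alpha-MHC-Pac-IRES-EGFP) with a puromycin resistance gene and EGFP under the cardiac alpha-MHC promoter, and was kept on mouse embryonic fibroblasts with LIF and neomycin. At day 0 the cells were undifferentiated and had been seeded on gelatin before RNA was taken. Days 12, 19 and 26 were Cor.At cardiomyocytes, which had formed in embryoid bodies in suspension, had survived puromycin from day 9 on and were then plated on fibronectin. There were 2 samples (cultures a and b) per day, which the study calls biological replicates, and each was hybridized to both the Affymetrix and the Febit array. P-values therefore rest on 2 arrays per day. The titles of the samples gave the day and the culture. For most day 19 and day 26 samples the culture text of the labels gave a shorter time on the plate than the study's methods, and which is right cannot be told from the values.

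As a check of the labels, the 7 miRNAs fixed as ES cell markers and the 6 fixed as cardiomyocyte markers were tested against day 0. On Affymetrix 6 of the ES cell markers were called lower at each later day, the other one was called higher at days 12 and 26, and 3 to 5 of the cardiomyocyte markers were called higher. On Febit 3 or 4 ES cell markers were called lower and 3 to 5 cardiomyocyte markers higher. Of the 4 fibroblast markers 1 was called higher at every day on both platforms, and 1 was called lower at day 19 on Febit. No endothelial or blood marker was called. The 1 tested nervous tissue marker was called lower at all 3 days on Affymetrix and at day 19 on Febit, and the liver miRNA miR-122 was called higher at all 3 days on Affymetrix. Whether other cell types had a part in the members' values was not tested. Among the 8 Febit arrays, 7 had a median raw intensity between 928 and 992, and day 26 b had one of only 228. In bulk RNA, fewer cells that carry a miRNA and less of it per cell cannot be told apart.

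The name of the cluster fits most members but not all. In RefSeq (GRCm38.p6), 72 hairpin genes of these families lie inside Sfmbt2 and 10 lie elsewhere in the genome. By name, 37 of the 50 members match hairpin genes inside Sfmbt2 only. A further 5 (miR-297a, miR-297a*, miR-466f, miR-466f-3p and miR-466f-5p) match genes both inside and elsewhere, and 6 (miR-466i, miR-466j, miR-466k, miR-467f, miR-467g and miR-467h) match genes elsewhere only. Both arms of miR-466a match no gene of that name in the table. A gene named Mir466, without a letter, lies inside Sfmbt2 and was not assigned to them. All 12 members of miR-669 match inside only.

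Mature sequences of 6 members were read from RefSeq (GRCm38.p6), 5 of them by exact name. No other member had a mature sequence there under its name, so only the members outside Sfmbt2 are shown. Their letters fall into 2 kinds. The array name miR-466i carries no arm, and miR-466i-3p is its only mature form in the table. The seed (bases 2 to 8 from the 5′ end) is in capitals:
miR-466i-3p (chr13:17747552-17747573, plus strand): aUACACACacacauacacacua
miR-467f (chr11:69635419-69635439, minus strand): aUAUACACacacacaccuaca
miR-467g (chr5:34732872-34732892, minus strand): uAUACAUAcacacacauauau
miR-466j (chr10:60960802-60960824, plus strand): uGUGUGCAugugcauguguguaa
miR-466k (chr3:85467396-85467418, plus strand): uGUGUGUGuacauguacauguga
miR-467h (chr9:115381898-115381919, plus strand): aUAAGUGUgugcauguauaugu

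The first 3 have no G and hold the run ACACAC. The last 3 are rich in G and U and hold the run GUGUGU. Each run was searched on the given strand of the mature RNA. ACACAC occurred in 11 of the 1679 mature miRNAs of the table (0.655%) and GUGUGU in 17 (1.01%). The 6 members have 6 different seeds, so among them a shared family number did not mean a shared seed: miR-466i-3p shares its run with miR-467f and not with miR-466j. The seeds of the members inside Sfmbt2 were not compared.

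A total of 46 members was tested, and miR-297b-5p, miR-466e-5p, miR-467d and miR-669g were not, because a supplementary table of the study lists them as absent on both platforms. Within each data set limma compared the days over 485 common miRNAs, with Benjamini-Hochberg adjustment over all of them. A member is called higher or lower at an adjusted p under 0.05. Values are log2 after VSN, a variance-stabilizing transformation. It follows the logarithm at high signal and turns linear near the background, where differences no longer stand for ratios. Errors after ± are SE of the fold change unless SD is written.

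No member was called higher than at day 0 at any day on either platform. On Affymetrix 1 member was called lower at day 12, 7 at day 19 and 1 at day 26. Over all 485 tested miRNAs, 6.19%, 10.9% and 10.3% were called lower at these days, and 26.2%, 22.7% and 29.5% higher. On Febit 6 members were called lower at day 12, 1 at day 19 and none at day 26, with 8.45%, 2.47% and 2.27% of all tested miRNAs called lower and 5.77%, 5.36% and 10.5% called higher. The 7 members at day 19 on Affymetrix are 15.2% of the 46 tested, and 6 of 46 were called at day 12 on Febit. The share of members called lower was above that of all miRNAs there. At days 12 and 26 on Affymetrix and days 19 and 26 on Febit the share of members was below that of all miRNAs. Of the 7 members, 5 were 3p forms of miR-466 that rose and fell together over the arrays. The difference between these shares was not tested. Beside the 0 calls on Febit at day 26, 1 of the 46 members had an unadjusted p under 0.05 in limma, against 116 of all 485. The 3 comparisons with day 0 share the same 2 day 0 arrays.

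**Figure D1:**
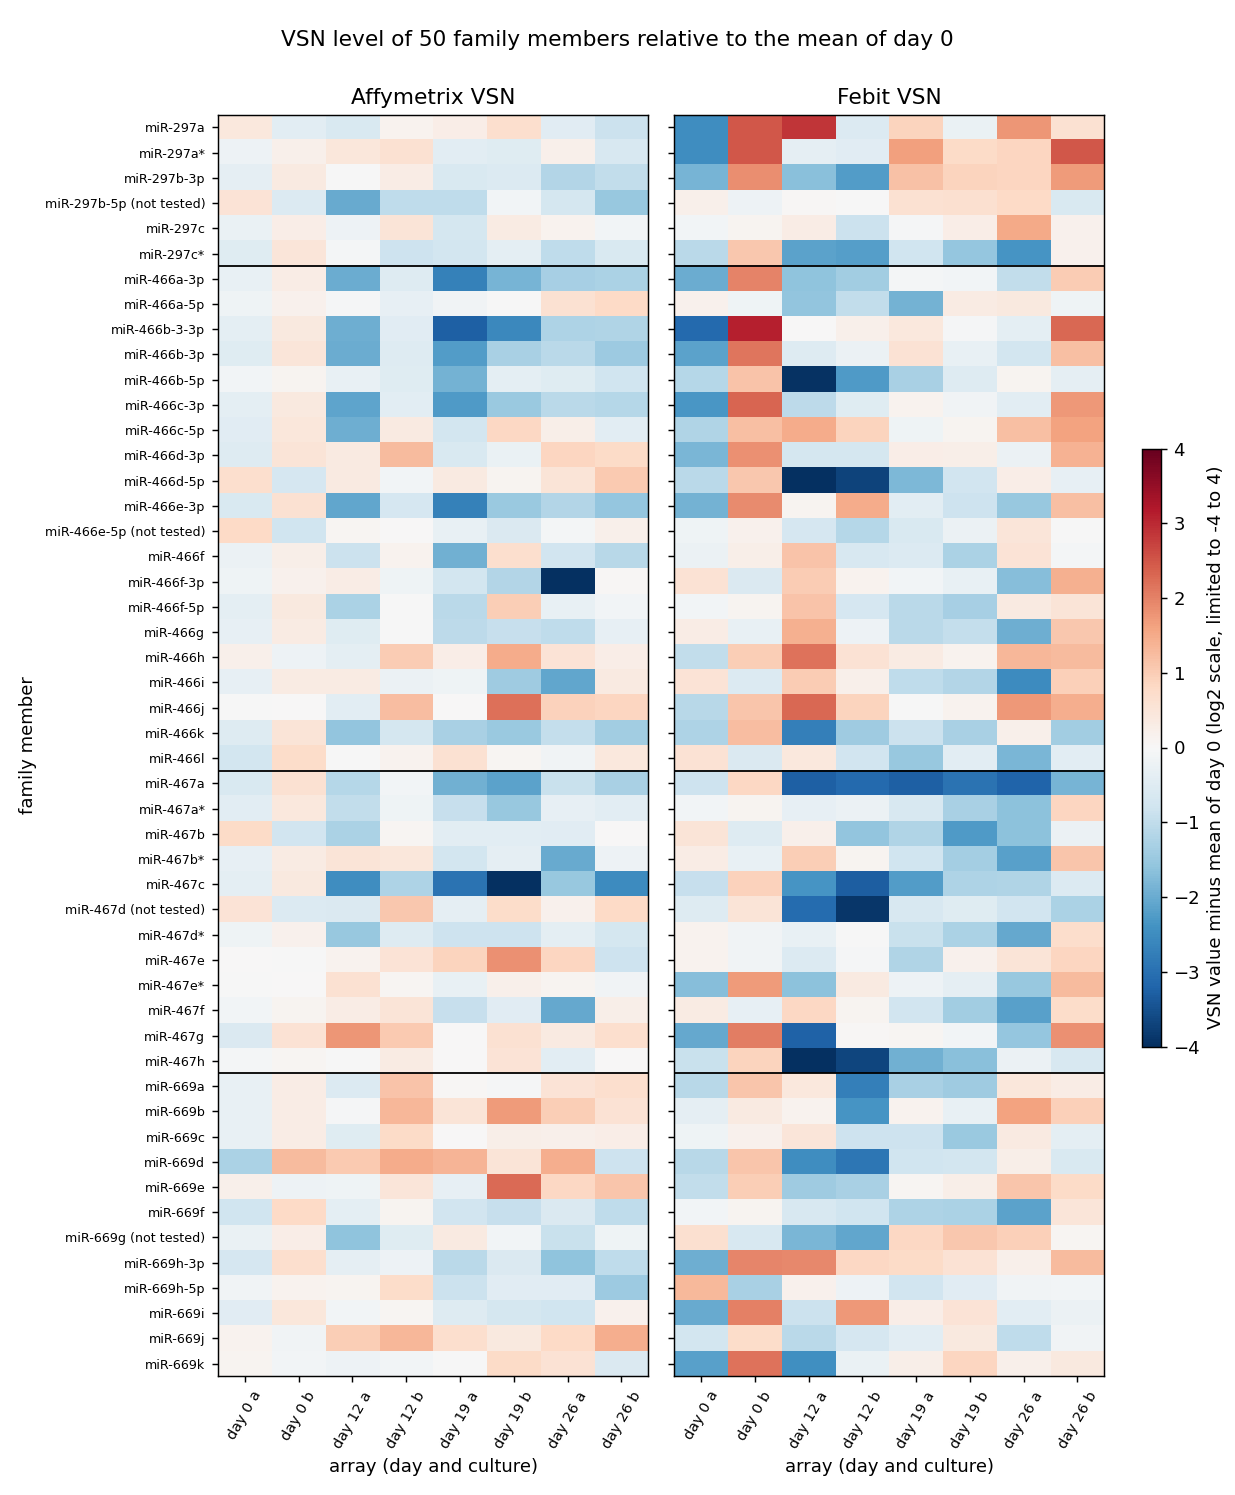
VSN level of each of the 50 members (rows, grouped by family) on each of 8 arrays per platform (columns), as the difference from the mean of the 2 day 0 arrays on a log2 scale limited to -4 to 4, with blue lower and red higher. On Affymetrix the 3p forms of miR-466a, b, b-3, c and e and miR-467c are lower at days 12 to 26, and on Febit the 2 day 0 arrays themselves differ for many members.

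The families differed in their medians. On Affymetrix the median log2 fold change of the 19 tested miR-466 members was -0.36 at day 12, -0.80 at day 19 and -0.67 at day 26. The 5 of miR-297 had medians of 0.13, -0.44 and -0.66, the 11 of miR-467 had 0.15, -0.55 and -0.38, and the 11 of miR-669 had 0.16, 0.12 and 0.24. Over all tested miRNAs the medians were 0.34, 0.22 and 0.41, so each family lay below the median of all miRNAs at each day. miR-669 was the nearest to it, and miR-466 the farthest below at all 3 days, with miR-297 level with it at day 26.

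On Febit the order was another. The median of all tested miRNAs was -0.02 at day 12, 0.06 at day 19 and 0.02 at day 26. miR-467 had medians of -0.64, -1.08 and -0.52, and at day 19 all 11 of its tested members were below 0. miR-466 had 0.10, -0.63 and 0.11, and miR-669 had -0.88, -0.08 and 0.00. miR-297, with 5 tested members, moved from -0.42 to 0.31 and 1.19. The families are thus ordered alike by the 2 platforms only in part: miR-467 lay below the median of all miRNAs on both at all days, while miR-297 lay above it on Febit and below it on Affymetrix at days 19 and 26. No test was made of the differences between families, since their members were chosen with results of these data known.

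**Figure D2:**
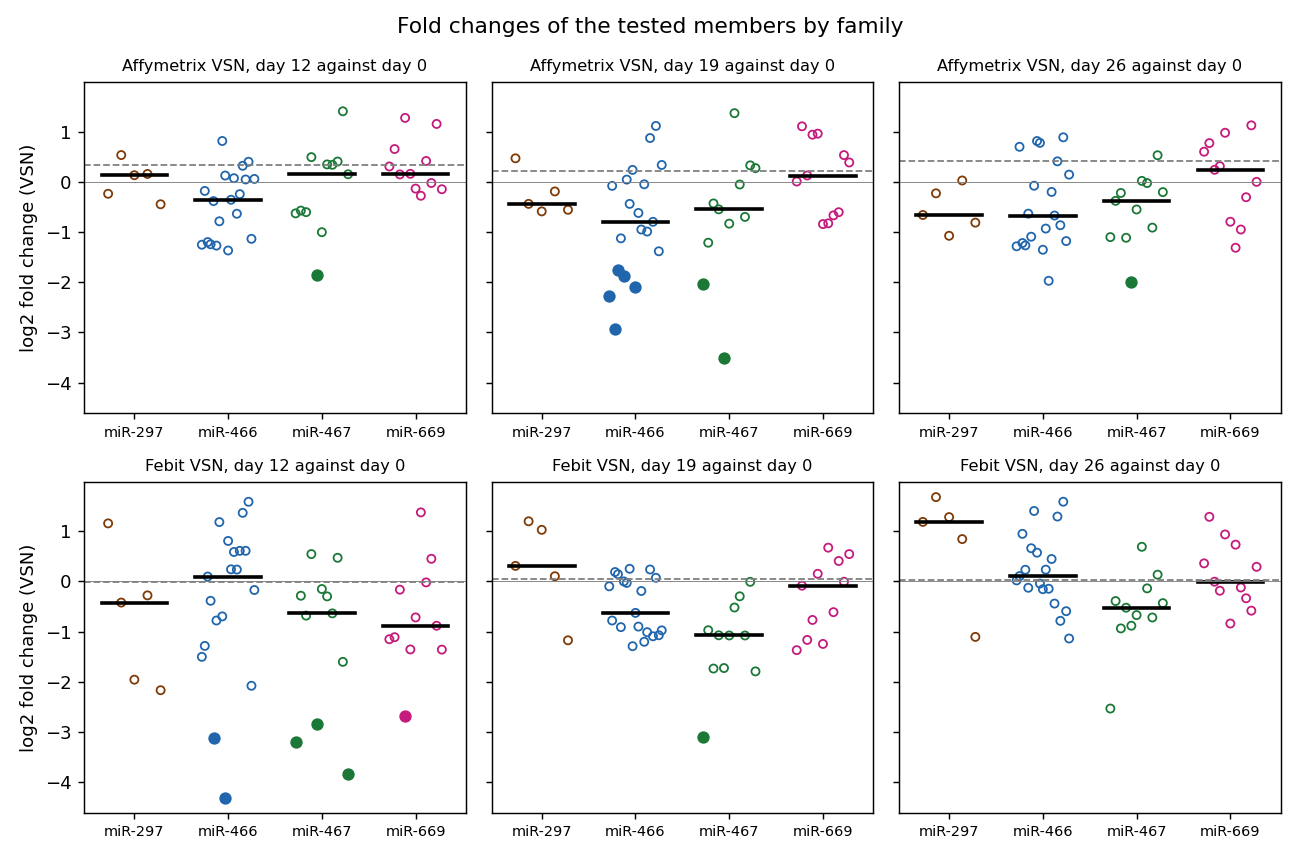
Log2 fold change (VSN) of each tested member against day 0, by family, for the 2 platforms (rows) and 3 days (columns), with filled points called in limma, thick bars at family medians and a dashed line at the median of all 485 tested miRNAs. No filled point is above 0, and all filled points of Affymetrix belong to miR-466 and miR-467.

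The fold changes of single members were compared between the platforms, as a description with no test of the difference. Across the 46 tested members, Pearson's r of the Affymetrix and Febit fold changes was 0.00 at day 12, 0.21 at day 19 and 0.31 at day 26. Across all 485 tested miRNAs, the members included, it was 0.42, 0.63 and 0.73. The fold change had the same sign on both platforms for 43.5%, 56.5% and 63.0% of the members, and for 55.5%, 66.8% and 68.2% of all tested miRNAs. Members are not independent replicates, and all members share the same 8 cultures. At day 19 the fold change was below 0 on both platforms for 21 members and above 0 on both for 5, against 141 and 183 of all 485.

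miR-467c was lower in cardiomyocytes on both platforms. This miRNA belongs to a family known in mouse for acting on thrombospondin-1, an inhibitor of vessel growth. Its Affymetrix VSN value was 4.35 and 5.16 at day 0 (culture a, then b, here and below), 2.28 and 3.51 at day 12, 1.81 and 0.67 at day 19, and 3.25 and 2.25 at day 26. Every array of a later day lay below both day 0 arrays. The log2 fold change was -1.86 ± 0.61 at day 12 (adjusted p in limma 0.035), -3.51 ± 0.61 at day 19 (adjusted p 0.00074) and -2.00 ± 0.61 at day 26 (adjusted p 0.019). The day 19 call held in all 13 alternatives. The day 12 call was lost without day 0 a (adjusted p 0.064), day 0 b (0.22) or day 12 a (0.27), and the day 26 call without day 0 b (0.16) or day 26 b (0.15).

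On Febit the VSN value of miR-467c was 7.40 and 9.24 at day 0, 5.95 and 5.02 at day 12, 6.09 and 7.10 at day 19, and 7.12 and 7.76 at day 26. Both day 12 arrays lay below both day 0 arrays, while at day 26 the groups overlapped. The fold change at day 12 was -2.84 ± 0.78 (adjusted p in limma 0.039). In raw intensity the 2 day 0 arrays gave 1000 and 1504.5 and those of day 12 gave 940 and 880, all but day 0 b near the array median. The Febit call at day 12 held in 4 of 15 alternatives, and leaving out any single array other than day 0 a ended it.

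miR-467a was the other member called on both platforms at the same day. Its Affymetrix VSN value was 4.71 and 5.91 at day 0, 4.17 and 5.19 at day 12, 3.38 and 3.18 at day 19, and 4.40 and 4.01 at day 26. The day 19 and day 26 arrays lay below both day 0 arrays, while those of day 12 overlapped with them. The fold change at day 19 was -2.03 ± 0.54 (adjusted p in limma 0.011). Without day 0 b it was -1.43 with an adjusted p of 0.10, the one alternative of 13 that ended the call. On Febit the value fell from 8.06 and 9.70 at day 0 to 5.61 and 5.76 at day 12, 5.62 and 5.94 at day 19, and 5.69 and 7.01 at day 26. All 6 later arrays lay below both day 0 arrays.

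The Febit fold change of miR-467a was -3.19 ± 0.74 at day 12 (adjusted p in limma 0.023) and -3.10 ± 0.74 at day 19 (adjusted p 0.030). At day 26 it was -2.53 ± 0.74 and missed the threshold narrowly (adjusted p 0.0502). Both calls held in 9 of 15 alternatives. They were lost without day 0 b (adjusted p 0.054 and 0.074), without either array of their own day, without either array of one other day (0.053 to 0.056), and on the scale of the raw intensity. The raw intensity was 1068 and 1756 at day 0, 924 and 920 at day 12, 872 and 876 at day 19, and 904 and 268 at day 26, against array medians of 960, 932, 968, 984, 944, 928, 992 and 228. miR-467a was above the array median on both day 0 arrays and on day 26 b, and below it on the other 5.

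Starred strands are a further view of this family. By name miR-467a* belongs to the hairpins of miR-467a, and miR-467d* to that of miR-467d, which was not tested. On Affymetrix miR-467a* and miR-467d* were not called by VSN at any day, with fold changes of miR-467d* from -1.01 ± 0.47 at day 12 (adjusted p in limma 0.13) to -0.55 ± 0.47 at day 26 (adjusted p 0.38). The deposited RMA values of the same arrays gave miR-467d* as 7.92 and 8.23 at day 0, 5.55 and 6.29 at day 12, 6.25 and 6.22 at day 19, and 6.14 and 5.84 at day 26. Both starred forms were called lower at all 3 days by RMA, miR-467d* with fold changes of -2.15 ± 0.27, -1.84 ± 0.27 and -2.09 ± 0.27 (adjusted p in limma 0.0013, 0.0020 and 0.0010). On Febit the fold change of miR-467d* by VSN was -0.15 ± 0.84 at day 12 and -1.08 ± 0.84 at day 19, neither of them called.

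**Figure D3:**
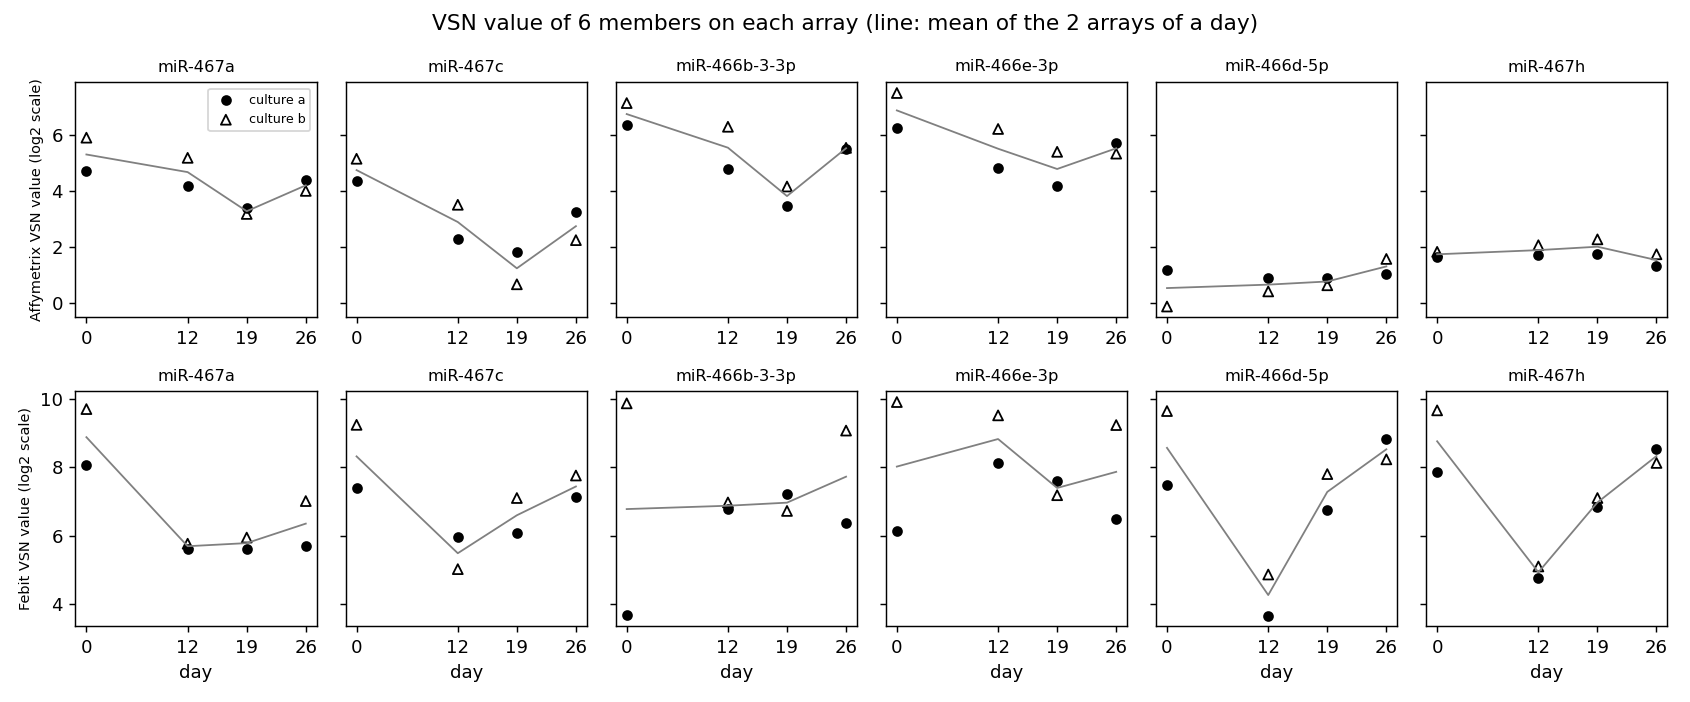
VSN value (log2 scale) of 6 members on the 2 arrays of each day (filled circle, culture a; open triangle, culture b), on Affymetrix (top) and Febit (bottom), with a line through the day means. miR-467a and miR-467c lie lower at day 19 on both platforms, the 2 miR-466 3p forms are called on Affymetrix and spread widely at day 0 on Febit, and miR-466d-5p and miR-467h are lowest at day 12 on Febit.

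Of the 7 calls at day 19 on Affymetrix, 5 were 3p forms of miR-466: miR-466a-3p, miR-466b-3p, miR-466b-3-3p, miR-466c-3p and miR-466e-3p. The other 3p forms, miR-466d-3p and miR-466f-3p, were not called. miR-466d-3p gave 3.51 and 4.57 at day 0 and 3.43 and 3.77 at day 19, and its fold changes were 0.81 ± 0.51 at day 12, -0.44 ± 0.51 at day 19 and 0.81 ± 0.51 at day 26. miR-466b-3-3p had VSN values of 6.36 and 7.15 at day 0, 4.80 and 6.30 at day 12, 3.48 and 4.16 at day 19, and 5.52 and 5.55 at day 26. Every later array lay below both day 0 arrays, and those of day 19 were the lowest. Its fold change at day 19 was -2.93 ± 0.56 (adjusted p in limma 0.0016) and held in all 13 alternatives. At day 12 it was -1.20 ± 0.56 (adjusted p 0.13) and at day 26 -1.22 ± 0.56 (adjusted p 0.11).

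miR-466e-3p gave 6.26 and 7.51 at day 0, 4.81 and 6.22 at day 12, 4.18 and 5.41 at day 19, and 5.72 and 5.34 at day 26, with a fold change of -2.09 ± 0.63 at day 19 (adjusted p in limma 0.024). miR-466a-3p gave 6.76 and 7.36 at day 0, 5.08 and 6.53 at day 12, 4.37 and 5.20 at day 19, and 5.74 and 5.81 at day 26, with -2.28 ± 0.56 at day 19 (adjusted p 0.0072). The same shape returned in each: lowest at day 19, with culture a below culture b at days 0, 12 and 19. The day 19 fold changes of miR-466b-3p and miR-466c-3p were -1.76 and -1.88 (adjusted p 0.038 and 0.028). Without day 0 b or without day 19 a, these 4 calls were lost (adjusted p 0.051 to 0.24), and those of miR-466b-3p and miR-466c-3p also without day 0 a (0.051 and 0.052).

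The 5 forms rose and fell together over the 8 Affymetrix arrays, with Pearson's r of 0.90 to 0.99 over their 10 pairs and a median of 0.97, against a median of 0.17 over the 1035 pairs of tested members. On Febit their r was 0.60 to 0.98 with a median of 0.90, against 0.20 over all pairs. These forms were put together after their values were seen, and they are near-identical in name and origin. The probe sequences were not analysed here, so whether each probe reads 1 form alone was not tested. On Febit none of the 5 was called at any day, and the day 0 arrays were far apart: miR-466b-3-3p gave 3.68 in culture a but 9.87 in culture b, and 6.72 to 7.21 at days 12 and 19, between these.

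The scaling of the Affymetrix values decided how many members were called. Centring each array on its median, quantile normalization and RMA brought the calls from 1 to 8, 10 and 11 at day 12, from 7 to 10, 11 and 13 at day 19, and from 1 to 18, 21 and 16 at day 26. All of these calls were lower. The share of all tested miRNAs called lower was also higher than by VSN: 73, 64 and 76 of 485 at day 12, 16.3%, 18.1% and 18.4% at day 19, and 23.7%, 21.4% and 20.4% at day 26. The members called by all 3 were 7 at day 12, 9 at day 19 and 11 at day 26, none of them from miR-297 or miR-669. The 5 miR-466 3p forms and miR-467c were among them at all 3 days, and miR-467a at days 19 and 26. At day 26 centring and quantile normalization each called 3 of 5 miR-297 members and 3 of 11 miR-669 members lower. By RMA, where the median of all tested miRNAs was 0.01, 0.00 and 0.00, miR-466a-3p gave 8.42 and 8.86 at day 0, 5.60 and 6.72 at day 12, 5.30 and 5.78 at day 19, and 5.78 and 5.82 at day 26. Its fold changes were -2.48 ± 0.38, -3.10 ± 0.38 and -2.84 ± 0.38 (adjusted p in limma 0.0031, 0.00097 and 0.0012). By RMA the 5 forms were called lower at all 3 days, and by VSN at day 19 only.

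Of the 5p strands, miR-466b-5p and miR-466d-5p were called, on Febit only. miR-466d-5p gave VSN values of 7.49 and 9.65 at day 0, 3.66 and 4.86 at day 12, 6.76 and 7.80 at day 19, and 8.82 and 8.23 at day 26. Both day 12 arrays lay below all others, and those of day 26 fell between the 2 of day 0. The fold change was -4.31 ± 0.83 at day 12 (adjusted p in limma 0.011), -1.29 ± 0.83 at day 19 (adjusted p 0.415) and -0.04 ± 0.83 at day 26 (adjusted p 0.995). Day 19 was higher than day 12 by 3.02 ± 0.83 (adjusted p 0.041), and day 26 higher than day 12 by 4.27 ± 0.83 (adjusted p 0.018). Among the arrays, leaving out day 12 a ended the day 12 call (adjusted p 0.095), and both rises were lost without any single array of the days compared, the rise to day 19 also without either day 26 array (adjusted p 0.080). In the deposited Febit values without VSN, taken as titled, the difference of day 19 from day 12 was -0.43 ± 0.49. The arrays titled day 12 a and day 19 b in that data set each rank like the other's raw array. With them exchanged the difference was 1.06 ± 0.33 and not called (adjusted p in limma 0.090).

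miR-467h, one of the members outside Sfmbt2, followed the same course on Febit: 7.86 and 9.67 at day 0, 4.75 and 5.10 at day 12, 6.84 and 7.10 at day 19, and 8.53 and 8.13 at day 26. Its fold change at day 12 was -3.84 ± 0.70 (adjusted p in limma 0.0094), and day 26 was higher than day 12 by 3.40 ± 0.70 (adjusted p 0.019). Leaving out day 12 a ended the day 12 call (adjusted p 0.069), and the rise was lost without any single array of the days compared. miR-466b-5p gave 7.19 and 9.49 at day 0 and 4.38 and 6.08 at day 12, a fold change of -3.11 ± 0.88 (adjusted p 0.044). miR-669d gave 7.54 and 9.77 at day 0 and 6.17 and 5.76 at day 12, a fold change of -2.68 ± 0.78 (adjusted p 0.048) and the single call of miR-669 by VSN. Each of these 2 calls held in 3 of 15 alternatives and was lost without any single array other than day 0 a.

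In raw intensity the day 12 dip of these members was small. miR-466d-5p read 1008 and 1720 at day 0 and 836 and 872 at day 12, and miR-467h read 1044 and 1732.5 at day 0 and 888 and 884 at day 12, against array medians of 968 and 984 at day 12. Both were thus below the middle of the array at day 12, where VSN stretches small differences. On the log2 scale of the raw intensity relative to the array median, the day 12 fold changes were -0.66 for miR-466d-5p and -0.64 for miR-467h. On that scale no member was called at any day, and 1.65%, 0.82% and 4.54% of all tested miRNAs were called at days 12, 19 and 26. By the non-VSN values as titled, neither was called at day 12 (-0.77 ± 0.49 and -1.55 ± 0.43). With the arrays titled day 12 a and day 19 b exchanged, both were called lower. The fold changes were then -1.51 ± 0.33 and -1.92 ± 0.31 (adjusted p in limma 0.019 and 0.0045). On Affymetrix neither member was called: miR-466d-5p stayed between -0.13 and 1.58 on all 8 arrays and miR-467h between 1.33 and 2.28, with fold changes at day 12 of 0.12 ± 0.52 and 0.15 ± 0.44. Whether the effects differ between the platforms was not tested.

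Among the 11 tested members of miR-669 only miR-669d, given above, was called by VSN with all arrays. Its member miR-669c gave Affymetrix VSN values of 6.81 and 7.43 at day 0, 6.64 and 7.89 at day 12, 7.13 and 7.36 at day 19, and 7.32 and 7.39 at day 26, so that all days overlapped, with fold changes of 0.12 to 0.24. By RMA the same arrays gave 8.48 and 8.90 at day 0 and 7.14 and 7.07 at day 26, a fold change of -1.58 ± 0.37 (adjusted p in limma 0.014). The differences above 0 in this family on Affymetrix were not called. miR-669d had the largest at day 12, with values from 0.24 to 2.77 at day 0, a difference of 1.27 ± 0.85 (adjusted p 0.31) between overlapping groups. miR-669j gave 0.35 and 0.05 at day 0 and 1.17 and 1.53 at day 12, a difference of 1.15 ± 0.45 that was not called (adjusted p 0.071). miR-669b gave 2.38 and 2.95 at day 0 and 3.16 and 4.37 at day 19, a difference of 1.10 ± 0.58 (adjusted p 0.17). On Febit miR-669f fell from 10.59 and 10.84 at day 0 to 9.49 and 9.46 at day 19, with -1.24 ± 0.82 (adjusted p 0.42).

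In miR-297 nothing was called by VSN with all arrays on either platform, while 3 members were called lower at day 26 on Affymetrix after centring or quantile normalization. Among the 5 tested members miR-297b-3p had the largest Affymetrix difference, from 2.54 and 3.29 at day 0 to 1.76 and 1.92 at day 26, which is -1.08 ± 0.45 (adjusted p in limma 0.080). The untested miR-297b-5p had -1.52 ± 0.57 at day 12 in the fit of all 608 common miRNAs (adjusted p 0.076). On Febit miR-297b-3p gave 5.16 and 8.87 at day 0 and 7.87 and 8.72 at day 26, a difference of 1.28 ± 1.03 (adjusted p 0.56). miR-297c* gave 7.49 and 9.64 on Febit at day 0 and 6.44 and 6.36 at day 12, a difference of -2.17 ± 0.95 (adjusted p 0.17). For miR-297a the 2 day 0 arrays of Febit were 4.75 and 9.71, a gap wider than that between the means of any 2 days.

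The calls were also counted by position. Of the 6 members outside Sfmbt2 none was called on Affymetrix and miR-467h was called on Febit at day 12. Of the 33 tested members with genes inside only, 6 were called lower on Affymetrix at day 19 and 5 on Febit at day 12. The medians at day 19 on Affymetrix were -0.55 for the members inside only and -0.22 for those elsewhere only. On Febit at day 19 they were -0.61 and -1.07.

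The 2 cultures of day 0 were farther apart for these members than for all tested miRNAs, with a median absolute difference of 1.89 against 1.05 on Febit and 0.71 against 0.59 on Affymetrix. At day 12 it was 0.80 against 0.70 on Febit and 0.74 against 0.47 on Affymetrix, where culture b was above culture a for 40 of 50 members and for 43.9% of all tested miRNAs. At day 19 it was smaller for the members, with 0.31 against 0.47 on Febit and 0.52 against 0.55 on Affymetrix. At day 26 it was 1.12 against 0.66 on Febit and 0.41 against 0.42 on Affymetrix. On the Febit array of day 0, culture b was above culture a for 37 of 50 members, with a median difference of 1.83 on the VSN scale. For all tested miRNAs the median difference was -0.20 and 44.7% were higher in b. In raw intensity the members' median was 990 in culture a and 1758 in culture b, and 8 and 18 of the 50 members exceeded 2 times the array median (960 and 932). The 3p forms of miR-466a, b, b-3, c and e read 848 to 928 in culture a and 1772 to 1897 in culture b. On Affymetrix culture b was also above culture a at day 0 for 39 members, with a median difference of 0.59, against 0.29 for all tested miRNAs, of which 63.9% were higher in b.

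The Febit fold changes therefore turned on which day 0 array was used. Without day 0 b, 3 members were called higher and 2 lower at day 12, 2 higher at day 19 and 6 higher at day 26. Of all 485 tested miRNAs, 44, 44 and 63 were called higher in these fits, and 38 lower at day 12. Without day 0 a, 13 members were called lower at day 12, 2 at day 19 and 1 at day 26, with 10.1%, 5.57% and 4.33% of all tested miRNAs called lower. miR-466j and miR-466c-5p were among those called higher at days 12 and 26 without day 0 b. At day 12 miR-466d-5p and miR-467h were called lower in both cases. On Affymetrix, without day 0 b miR-467g was called higher at day 12 (21.9% of all tested miRNAs) and only miR-466b-3-3p and miR-467c were called lower at day 19 (6.80%), and without day 19 a miR-466j and miR-669e were called higher at day 19, where 19.2% of all tested miRNAs were.

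At day 26 there were 4 members that differed between cultures on both platforms. The Affymetrix value of miR-466f-3p was 3.04 in culture a and 7.09 in culture b, where the other 6 arrays were between 5.87 and 7.34. On Febit it gave 11.36 and 14.47, the lowest and the highest of its 8 values. miR-466i, miR-467b* and miR-467f followed it: culture b was above culture a by 2.45, 1.83 and 2.27 on Affymetrix and by 3.47, 3.27 and 2.91 on Febit. Day 26 a was the lowest array for all 4 members on both platforms. They were picked for a gap of over 1.5 on both platforms, so the gap is a description.

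The gap stood in the raw Febit intensities as well. miR-466f-3p read 4701 in culture a and 17228 in culture b, although the array median was 228 in b and 992 in a. miR-466i read 2345 and 8698, miR-467b* 1664 and 4209, and miR-467f 3025 and 8578. Of these members miR-466i and miR-467f have printed sequences, and both hold the run ACACAC.

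**Figure D4:**
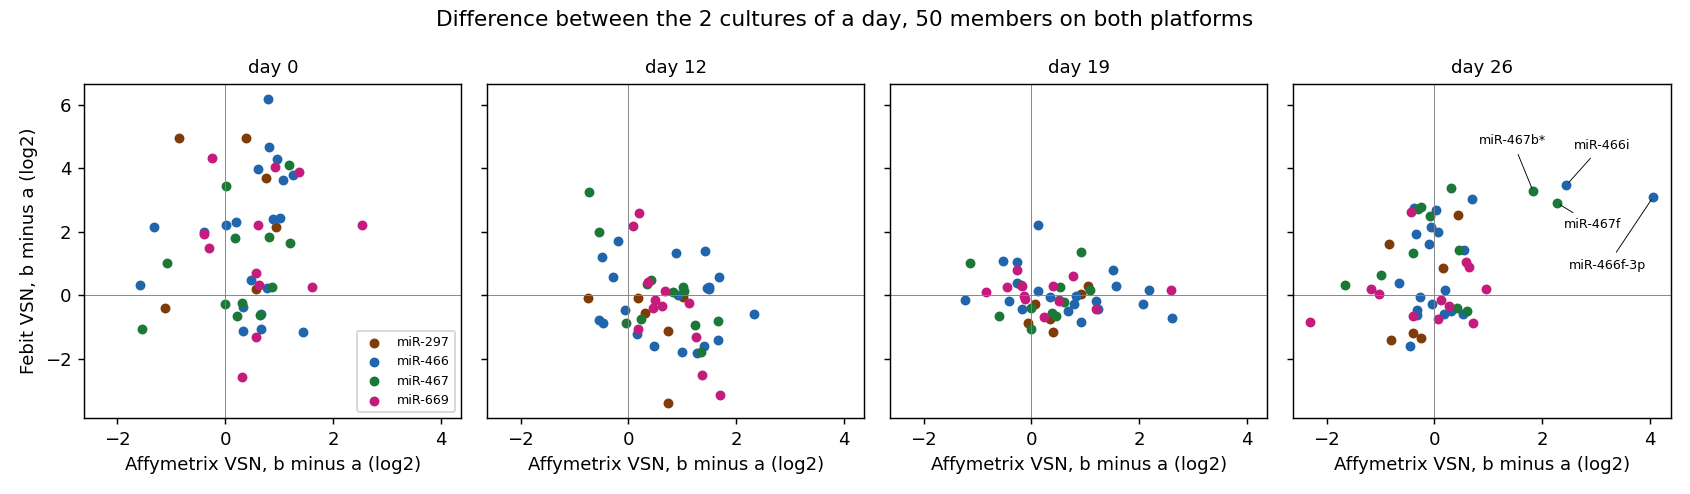
Culture b minus culture a in VSN value (log2 scale) for each of the 50 members, Affymetrix on the x axis and Febit on the y axis, 1 panel per day, coloured by family. At day 0 most points lie above 0 on Febit, at day 12 most lie right of 0 on Affymetrix, and at day 26 the 4 named members lie far out on both axes.

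The same difference between cultures at day 26 was read for the members with a printed sequence and for other miRNAs with the same runs. Besides the members, 4 tested miRNAs matched by exact name hold one of the runs, of 107 other tested miRNAs with a sequence:
miR-574-3p (chr5:64970364-64970385, plus strand): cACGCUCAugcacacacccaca
miR-362-3p (chrX:7241984-7242005, minus strand): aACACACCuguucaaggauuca
miR-574-5p (chr5:64970328-64970350, plus strand): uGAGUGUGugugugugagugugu
miR-1187 (chr5:82798964-82798986, minus strand): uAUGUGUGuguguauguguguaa

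On Febit at day 26, culture b was above culture a by 3.47, 2.91 and 3.38 for the members with ACACAC (miR-466i, miR-467f and miR-467g), by 2.45 for miR-574-3p and by 0.31 for miR-362-3p. For the members with GUGUGU the differences were -0.27 (miR-466j), -1.61 (miR-466k) and -0.41 (miR-467h), with 0.57 for miR-574-5p and 0.13 for miR-1187. miR-466i and miR-467f were among the members picked for this gap. With the other miRNAs the 2 kinds of letters overlapped, and at day 0 the Febit differences were -1.07, -0.64 and 4.11 for the members with ACACAC and 2.20, 2.44 and 1.81 for those with GUGUGU. On Affymetrix miR-466i and miR-467f showed the gap (2.45 and 2.27) and miR-467g did not (0.31, within the -0.45 to 0.41 of the members with GUGUGU), nor did miR-574-3p (0.32). Each miRNA here rests on 1 array per culture, and the array median differed between the cultures as given above.

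Of the 4 related miRNAs only miR-574-3p was called against day 0. On Affymetrix it gave 4.20 and 4.92 at day 0, 6.70 and 6.26 at day 12, 8.07 and 6.94 at day 19, and 7.25 and 7.57 at day 26. All later arrays lay above both day 0 arrays, and the rise was 1.92 ± 0.51, 2.94 ± 0.51 and 2.85 ± 0.51 (adjusted p in limma 0.012, 0.00077 and 0.00076). On Febit it was not called, with 0.73 ± 0.86 at day 12. Its direction on Affymetrix was opposite to that of the members called there.

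The 4 members that were not tested were dim on Affymetrix, with VSN values of -0.52 to 2.37. On Febit their VSN values were 4.33 to 8.73, on both sides of the array medians of all tested miRNAs (6.50 to 7.00). In a fit of all 608 common miRNAs miR-467d was lower at day 12 on Febit, with 7.70 and 8.73 at day 0 and 5.15 and 4.33 at day 12, a difference of -3.48 ± 0.65 (adjusted p in limma 0.0086). On Affymetrix it gave 1.84 and 0.76 at day 0 and 0.71 and 2.37 at day 12, so that the groups overlapped. miR-297b-5p, miR-466e-5p and miR-669g were not called in that fit at any day against day 0.

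Day-to-day comparisons among cardiomyocytes gave few calls. On Affymetrix no member was called for day 19 vs. day 12, day 26 vs. day 12 or day 26 vs. day 19. In this order 5, 3 and 5 of the 46 members had an unadjusted p under 0.05 in limma, against 73, 89 and 73 of all 485. Over all tested miRNAs 0.412%, 4.12% and 0.0% were called. On Febit the calls were those of miR-466d-5p and miR-467h given above, 1 member higher for day 19 vs. day 12 and 2 for day 26 vs. day 12, with 10.5% and 9.48% of all tested miRNAs called higher. At day 26 vs. day 19 on Febit 42 of 46 members had a fold change above 0, against 274 of all 485 tested miRNAs. The median was 0.57 against 0.12. None was called (0.0% of all tested miRNAs were called higher), with 1 at an unadjusted p under 0.05 in limma, against 23 of all 485. The members above 0 were 42 by centring, 41 on the raw scale and 27 by quantile normalization. By the non-VSN values they were 30 as titled and 31 exchanged. This comparison includes day 26 b, with its median raw intensity of 228.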

How the data were processed

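The deposited Affymetrix tables cover 609 miRNAs as log2 values, once after RMA and once after VSN. The Febit tables that the authors deposited cover 710 miRNAs, also on a log2 scale, either after VSN or after subtraction of background with quantile normalization (non-VSN). The intensity of each of the 8 Febit features per miRNA was deposited too. The submitters' processing notes name RMA and affy. This makes 4 data sets of 8 arrays. Each record was assigned to day and culture by its title. VSN was the main scale. Of the miRNAs common to the arrays, 123 that a supplementary table of the study gives as absent on each platform were left out, and 485 remained. Day means were fitted with limma 3.58.1 (R 4.3.3; 4 residual degrees of freedom, empirical Bayes), for 6 comparisons. The fit was tested on simulated data. Non-VSN values under the Febit titles day 12 a and day 19 b rank like the raw values under the opposite title (Spearman 1.0 across miRNAs, but 0.198 under the same title), so these were also used exchanged. Raw Affymetrix intensities were not analysed here. Precision is limited by 2 arrays per day. Members, lists and tests were chosen with earlier results of these data known. Members named singly were those called on both platforms at the same day, per family and platform the 2 of largest mean fold change and that with the highest value at day 0, and those not tested. Others were named after their values were seen. Also tried were the other deposited normalization, no filter, centring, quantile normalization, raw Febit values, the replicate block and leaving out each array. Figures were drawn with matplotlib 3.10.9.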

Additional observations from a re-analysis of the deposited data

Results flagged for a closer look

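On Febit the VSN fold changes of miR-466d-5p differed between days under the same comparison with day 0: the day 19 value minus the day 12 value was 3.02 and the day 26 value minus the day 12 value was 4.27, both called in limma. For miR-467h the day 26 value minus the day 12 value was 3.4. These are the day-to-day differences given above, and both members are near the background of the array at day 12.

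Signals above both day 0 arrays were also seen in miRNAs outside the comparisons. Such a position was common on Febit: both arrays of the day lay above both day 0 arrays for 29.7% of all tested miRNAs at day 19 and 26.6% at day 26. Among the 50 members it was 4.0% and 14.0%. Of the miRNAs on the Febit array only, miR-669m had mean VSN values of 8.12 at day 19 and 8.38 at day 26, against 7.35 and 7.65 at day 0. miR-669n had a mean of 10.76 at day 26, against 7.78 and 10.05 at day 0. Of the members left out of the tests, miR-297b-5p had a Febit mean of 7.55 at day 19, against 7.13 and 6.74, and miR-669g had 7.44 at day 19, against 7.13 and 5.83.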

How the results depend on the processing

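On Affymetrix the 1 member called at day 12 became 11 by RMA, 8 by centring each array and 10 by quantile normalization. The 7 at day 19 became 13 by RMA and 11 by quantile normalization, and the 1 at day 26 became 16, 18 and 21 in the same order. The shares of all tested miRNAs called lower, given above, rose too. On Febit the 6 at day 12 became 1 with the non-VSN values as titled, 3 with the 2 arrays exchanged, 0 on the raw scale and 3 by centring. Of all tested miRNAs, 8.45% were called lower there by VSN, and 1.86%, 5.36%, 1.03% and 4.54% in these settings. The 1 at day 19 became 2, 2 and 0 with the first 3 of these settings, where 2.27%, 3.3% and 0.619% of all were called lower. The 0 at day 26 became 1 as titled, 1 exchanged and 1 by quantile normalization. There 2.47%, 3.3% and 3.3% of all were called lower. For day 19 vs. day 12 the 1 call became 0 as titled, 0 exchanged, 0 on the raw scale, 0 by centring and 3 without the filter. For day 26 vs. day 12 the 2 calls became 0, 0 and 0 as titled, exchanged and raw, and 4 without the filter. Of all tested miRNAs, none was called in either comparison as titled or on the raw scale. Exchanged, 7 of all were called higher for day 19 vs. day 12 and 5 for day 26 vs. day 12. By centring, 30 of all were called higher for day 19 vs. day 12. The causes were not tested.

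Leaving out 1 array at a time gave 0 to 5 calls at day 12, 2 to 9 at day 19 and 0 to 6 at day 26 on Affymetrix, and 0 to 3 for day 26 vs. day 12. On Febit it gave 0 to 13, 0 to 2 and 0 to 6 against day 0, 0 to 5 for day 19 vs. day 12 and 0 to 6 for day 26 vs. day 12. A lone array of a day was taken to vary like those of the other days. These ranges pool both directions. The highest counts on Affymetrix were calls lower. On Febit they were lower at day 12, of either direction at day 19, and higher at day 26 and in both comparisons with day 12. The number of all tested miRNAs called also changed from fit to fit, so the ranges alone show no excess of members. For Febit without either day 0 array, numbers for all tested miRNAs are given above.

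Letters a and b could not be shown to pair cultures across days: differences between a and b correlated at -0.026 to 0.351 on Affymetrix and -0.138 to 0.094 on Febit. With the letter as a replicate block, Affymetrix calls were 2 at day 12, 8 at day 19 and 3 at day 26, and Febit calls were 5, 1 and 1. All were lower except miR-467g, which was called higher at day 12 on Affymetrix. Of all 485 tested miRNAs, 132 were called higher there. Those called lower at days 12, 19 and 26 were 37, 64 and 56 on Affymetrix and 32, 12 and 9 on Febit.

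For miR-669c on Affymetrix the direction reversed by RMA, to -1.33 at day 12 and -1.58 at day 26. The rise of miR-466d-5p from day 12 to day 19 became -0.43 with the non-VSN values as titled, and 1.06 with the 2 arrays exchanged. Among the tested members named singly by the rules above, 68 fold changes against day 0 gained a call, 63 lost one and 2 reversed. The other 1463 were classed as unchanged, a class that includes changes of sign without a call. By VSN on Affymetrix, miR-297b-3p had means of 2.915 at day 0 and 3.045 at day 12, while its RMA fold change was -0.10. Near the Febit background, small intensity differences become large VSN differences, which limits what can be read from dim members.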

Other observations

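Of the miRNAs on the Febit array only, miR-669l gave VSN values of 5.56 and 9.94 at day 0 and 9.70 and 9.67 at day 26. miR-669o gave 4.75 and 9.87 at day 0 and 9.95 and 9.54 at day 26. In both, culture b was far above culture a at day 0, as for many members on both arrays.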
